A study of Mus musculus with 6 samples.

Results

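The genes described here are 9 genes of T cells and cytotoxic lymphocytes, read in RNA-seq libraries of sorted mouse epidermis: Cd3d, Cd3e, Cd3g, Cd247, Cd7, Il2rb, Nkg7, Ctsw and Itgae. They were chosen by symbol from a table of 24972 entries, and all 9 were found. The choice was made with the difference between cKO and control already known, so their levels in that comparison are a description and carry no test. Poly(A) RNA came from basal epidermal cells flow-sorted from back skin, in 3 cKO and 3 control libraries. Mice of both groups had the same genotype: p63CreER, a tamoxifen-activated Cre recombinase driven in basal keratinocytes, Piezo1fl/fl, a floxed gene for a mechanically gated cation channel, and the fluorescent reporter R26-mTmG. Mice of the cKO group were injected with tamoxifen (3 injections of 20 ug between postnatal days 45 and 52), and control mice received vehicle, so tamoxifen and deletion of Piezo1 cannot be told apart. The labels give neither the sort gate nor the number of animals, so the spread between libraries may be partly technical.

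T cells live within the epidermis itself. In mouse skin most of them carry an invariant gamma-delta T cell receptor, extend dendrites between keratinocytes and watch these for stress. The chains that bind antigen have no signalling tails of their own. They are assembled with the CD3 gamma, delta and epsilon subunits and the zeta chain, whose phosphorylated tails recruit the kinase Zap70. T cells are held in epithelium by the integrin CD103, which binds E-cadherin, and are kept alive by IL-15.

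The 3 genes for CD3 gamma, delta and epsilon form a cluster on chromosome 9 (GENCODE M21, GRCm38). Cd3g (ENSMUSG00000002033.14, minus strand, 44969572 to 44980431) and Cd3d (ENSMUSG00000032094.8, plus strand, 44981786 to 44987339) are transcribed away from each other across a gap of 1354 bases. Cd3e (ENSMUSG00000032093.7, minus strand, 44998740 to 45009627) lies 11400 bases beyond Cd3d. Their promoters are shown because these neighbours were all higher in the cKO libraries. Each window covers 250 bases before to 50 bases after the RefSeq start (GRCm38.p6), at chr9:44980382-44980681 on the minus strand for Cd3g, chr9:44981536-44981835 on the plus strand for Cd3d and chr9:45009562-45009861 on the minus strand for Cd3e. Capitals mark AGGAAG on either strand, the core that ETS family factors bind.
Cd3g: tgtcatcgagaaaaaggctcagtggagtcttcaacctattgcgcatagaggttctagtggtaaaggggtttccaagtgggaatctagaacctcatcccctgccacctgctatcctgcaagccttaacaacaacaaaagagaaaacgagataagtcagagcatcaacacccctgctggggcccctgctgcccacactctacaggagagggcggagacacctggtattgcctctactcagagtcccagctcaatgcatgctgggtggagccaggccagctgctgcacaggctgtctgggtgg
Cd3d: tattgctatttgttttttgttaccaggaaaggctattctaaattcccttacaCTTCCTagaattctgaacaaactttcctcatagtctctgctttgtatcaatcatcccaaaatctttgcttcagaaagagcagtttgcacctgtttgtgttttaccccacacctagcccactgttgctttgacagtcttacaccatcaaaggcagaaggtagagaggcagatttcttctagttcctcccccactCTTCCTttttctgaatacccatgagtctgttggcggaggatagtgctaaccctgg
Cd3e: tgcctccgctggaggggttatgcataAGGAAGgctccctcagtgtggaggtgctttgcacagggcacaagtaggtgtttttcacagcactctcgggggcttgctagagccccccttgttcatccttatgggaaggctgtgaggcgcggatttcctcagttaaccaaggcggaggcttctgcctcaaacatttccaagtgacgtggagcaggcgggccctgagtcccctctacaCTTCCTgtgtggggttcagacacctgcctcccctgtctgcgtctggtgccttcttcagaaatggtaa

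The RefSeq promoter table held 5 of the 9 genes, Cd3d, Cd3e, Cd3g, Cd247 and Nkg7. AGGAAG stood in 4 of these 5 windows, all but that of Cd3g, and in 35.4% of 32851 promoter windows of the same length. TGTGGT, the RUNX core, stood in 1 of the 5, that of Nkg7, against 16.8% of all windows. CTTTGA, a TCF/LEF core, stood in those of Cd247 and Cd3d, against 16.0%. AGATAA, which GATA factors bind, stood in that of Cd3g, against 11.2%, and TCACAC, a T-box core, in that of Nkg7, against 14.5%. TATAAA stood in 0 of the 5, against 13.6%. Each motif was searched on both strands. These are matches of letters, not bound sites.

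The smallest step between low normalized counts in a library gives an estimate of what 1 read is worth. Only 9.28% to 13.7% of values of 20 to 100 reads were whole multiples of it, so the factor may vary by gene and read numbers given here are approximate. The step was 12.3, 0.719 and 0.760 normalized counts in cKO replicates 1, 2 and 3, and 0.504, 0.491 and 0.603 in control replicates 1, 2 and 3. The cKO replicates 1, 2 and 3 were thus about 1.05, 15.6 and 14.2 M reads deep, against 22.4, 24.5 and 20.8 M reads for control replicates 1, 2 and 3. In the shallow cKO replicate 1, 3 reads came to 36.8 normalized counts, and 6.55% of the tested genes were listed at 0. Piezo1, the targeted gene, stood at 380.3, 565 and 399 normalized counts in cKO replicates 1, 2 and 3, against 806, 1098 and 1476 in control replicates 1, 2 and 3. Every cKO value lay below every control value, with a log2 fold change of -1.31 (SE 0.27), an exact permutation p of 0.1, the smallest that 3 against 3 libraries allow, and a limma adjusted p of 0.744. Its exons share 2441 bases with Ctu2 on the opposite strand. Of the basal keratins, Krt5 stood at 243915 ± 20001 in cKO and 242789 ± 16635 in control (SD, n = 3 each). Krt14 stood at 151551 ± 45749 in cKO and 137925 ± 10228 in control (SD, n = 3 each). The basal marker Trp63 was higher in each cKO library, at 7880, 9939 and 8608 in cKO replicates 1, 2 and 3. It stood at 7312, 5440 and 5990 in control replicates 1, 2 and 3. Xist, expressed from the inactive X chromosome of females, was high in cKO replicates 1 and 2 and control replicate 1, and the Y-linked Ddx3y in the other 3, so the sexes were split unequally.

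The T cell genes were rare transcripts in both groups and lay higher in cKO. Summed over the 9, they came to 547, 326 and 1000.5 normalized counts in cKO replicates 1, 2 and 3, against 136, 75.5 and 120 in control replicates 1, 2 and 3. As a share of the whole library, on the scale of CPM, that was 42.4, 29.1 and 93.0 in the cKO libraries and 12.0, 6.27 and 9.51 in the control libraries. For 8 of the 9 genes, every cKO value was above every control value. Over all 12239 genes tested, 5.16% had groups that did not overlap with cKO higher. Since the genes were chosen on this contrast, nothing is read from the 2 shares. In bulk RNA, more T cells in a sample and more of a transcript per T cell cannot be told apart. The median fitted log2 fold change of the 9 was 2.33, beside -0.03 for all genes tested, and it ranged from 2.07 without cKO replicate 3 to 2.76 without cKO replicate 2.

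**Figure D1:**
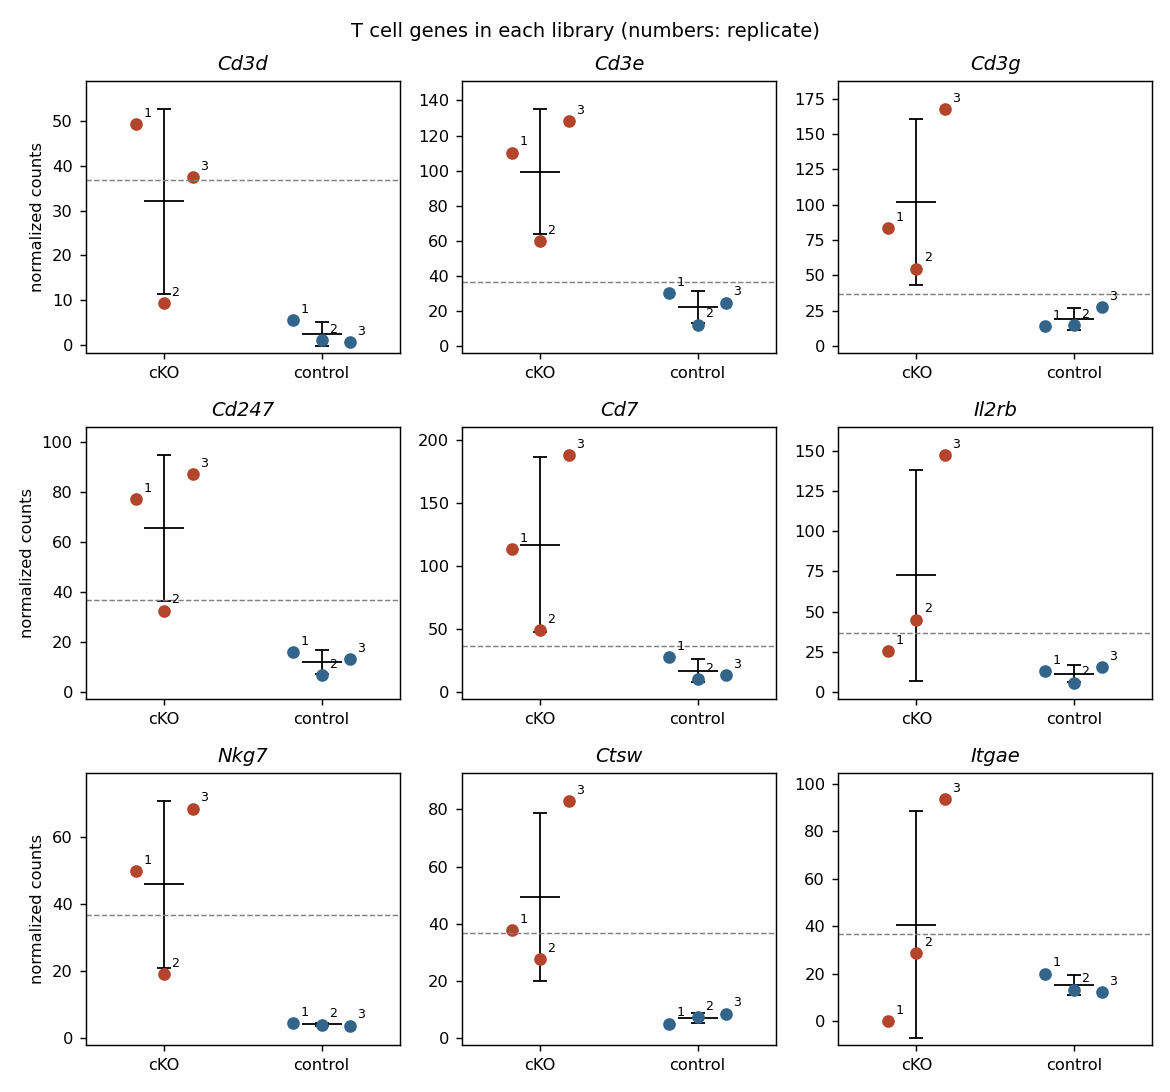
Normalized counts of each T cell gene in the cKO (left) and control (right) libraries. Points are single libraries numbered by replicate, horizontal bars with whiskers are the mean and SD of 3 libraries, and the dashed line is the worth of 3 reads in cKO replicate 1, 36.8 normalized counts. Each gene but Itgae has every cKO point above every control point, and cKO replicate 3 is highest for 8 of 9 genes.

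Cd3e, the epsilon subunit that pairs with both gamma and delta, stood at 110.2, 59.8 and 128 normalized counts in cKO replicates 1, 2 and 3, against 30.1, 12.3 and 24.8 in control replicates 1, 2 and 3. The lowest cKO library had 1.99 times the value of the highest control library. The means were 99.4 ± 35.5 in cKO and 22.4 ± 9.12 in control (SD, n = 3 each), a log2 fold change of 2.12 (SE 0.50). Cd3e shares 135 exonic bases with Gm48719 on the opposite strand, and the use of strand in counting is not given in the sources used here.

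Cd3g, the gamma subunit, stood at 83.6, 54.9 and 167 normalized counts in cKO replicates 1, 2 and 3, against 14.1, 14.9 and 27.9 in control replicates 1, 2 and 3. The groups were apart, with the lowest cKO library at 1.97 times the highest control library and a log2 fold change of 2.28 (SE 0.54). Cd3d, the delta subunit, was the rarest of the 9 in control. It stood at 49.4, 9.24 and 37.5 normalized counts in cKO replicates 1, 2 and 3, against 5.50, 0.983 and 0.605 in control replicates 1, 2 and 3. Its control values were about 11 reads in replicate 1, 2 reads in replicate 2 and 1 read in replicate 3. The log2 fold change of 3.30 (SE 1.11), the highest of the 9, was 2.18 with a pseudocount of 5 in place of 1.

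Cd247 encodes the zeta chain, which carries most of the signalling motifs of the receptor (ENSMUSG00000005763.15, chromosome 1, 165788681 to 165877277, plus strand). It stood at 77.4, 32.6 and 87.2 normalized counts in cKO replicates 1, 2 and 3, against 16.0, 6.62 and 13.2 in control replicates 1, 2 and 3, with no overlap between groups and a log2 fold change of 2.33 (SE 0.62). Its exons share 3007 bases with Pou2f1 on the opposite strand. Pou2f1 is an octamer-binding transcription factor that stood at 392, 518 and 243 normalized counts in cKO replicates 1, 2 and 3, against 371, 287 and 461 in control replicates 1, 2 and 3. The order of its libraries differed from that of Cd247, and whether any of its reads were counted for Cd247 was not tested.

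Per kilobase of exon, the make-up of the CD3 complex transcripts varied less for the zeta chain than for delta. Cd247 took 15.4%, 14.3% and 13.7% of the summed level of the 4 subunit genes in cKO replicates 1, 2 and 3, against 17.0%, 13.3% and 14.2% in control replicates 1, 2 and 3. Cd3d took 28.9%, 11.9% and 17.3% in cKO replicates 1, 2 and 3, against 17.1%, 5.78% and 1.92% in control replicates 1, 2 and 3. The cKO replicate 1 share of Cd3d stands on 4 reads and those of control replicates 2 and 3 on 2 and 1. Cd3e took 28.6%, 34.4% and 26.3% in cKO replicates 1, 2 and 3, against 41.6%, 32.2% and 34.9% in control replicates 1, 2 and 3, and Cd3g took the rest.

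Cd7, an immunoglobulin superfamily protein on T and NK cells (ENSMUSG00000025163.6, chromosome 11, 121036747 to 121039418, minus strand), was the most abundant of the 9 per kilobase of exon. It stood at 113, 49.1 and 188 normalized counts in cKO replicates 1, 2 and 3, against 27.5, 10.3 and 13.3 in control replicates 1, 2 and 3. Its lowest cKO value was 1.79 times its highest control value, with a log2 fold change of 2.63 (SE 0.62). It shares 122 exonic bases with Gm11775 on the opposite strand. Il2rb, the beta subunit shared by the IL-2 and IL-15 receptors (ENSMUSG00000068227.9, chromosome 15, 78479256 to 78495271, minus strand), stood at 25.4, 45.1 and 147 normalized counts in cKO replicates 1, 2 and 3, against 13.0, 5.84 and 15.6 in control replicates 1, 2 and 3. Its value in cKO replicate 1 was about 2 reads, with a 95% Poisson interval of 3.07 to 91.7 normalized counts that spans every control value, so its position above control there is not resolved at this depth. With all 6 libraries its log2 fold change was 2.28 (SE 0.77).

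The 2 genes of cytotoxic lymphocytes had the lowest control levels after Cd3d. Nkg7, a membrane protein of cytotoxic granules (ENSMUSG00000004612.9, chromosome 7, 43437073 to 43438249, plus strand), stood at 49.95, 19.2 and 68.6 normalized counts in cKO replicates 1, 2 and 3, against 4.49, 3.92 and 3.63 in control replicates 1, 2 and 3. It had the widest gap between groups, the lowest cKO library standing at 4.27 times the highest control library, with a log2 fold change of 3.05 (SE 0.77). Ctsw, the papain-like protease cathepsin W (ENSMUSG00000024910.5, chromosome 19, 5465043 to 5468507, minus strand), stood at 37.7, 27.7 and 82.9 normalized counts in cKO replicates 1, 2 and 3, against 4.99, 7.33 and 8.45 in control replicates 1, 2 and 3. Its groups did not overlap and its log2 fold change was 2.54 (SE 0.68). Cd3d, Nkg7 and Ctsw had control means under 10 normalized counts and passed the filter on low values through their cKO libraries.

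Itgae, the CD103 subunit that anchors T cells to E-cadherin (ENSMUSG00000005947.11, chromosome 11, 73090583 to 73147446, plus strand), was the exception. It was listed at 0 in cKO replicate 1 and stood at 28.5 and 93.5 normalized counts in cKO replicates 2 and 3, against 20.0, 13.3 and 12.1 in control replicates 1, 2 and 3. A count of 0 at this depth allows a level of 36.8 normalized counts by the floor of 3 reads and of 45.3 by the upper end of the 95% Poisson interval, both above each control value. Its log2 fold change was -0.17 (SE 1.57) with all libraries and 1.74 (SE 0.57) without cKO replicate 1. Ptprc, the leukocyte antigen CD45, was also listed at 0 in cKO replicate 1. It stood at 92.9 and 263 normalized counts in cKO replicates 2 and 3, against 29.96, 27.6 and 30.6 in control replicates 1, 2 and 3. For Ptprc the upper end of the interval in cKO replicate 1, again 45.3, lay above each control value but below cKO replicates 2 and 3. For Itgae that end lay above cKO replicate 2 and below cKO replicate 3. The cause of this difference between the cKO libraries was not tested. Without cKO replicate 1, the groups did not overlap for 9 of the 9 T cell genes, beside 10.2% of all genes tested in those 5 libraries.

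**Figure D2:**
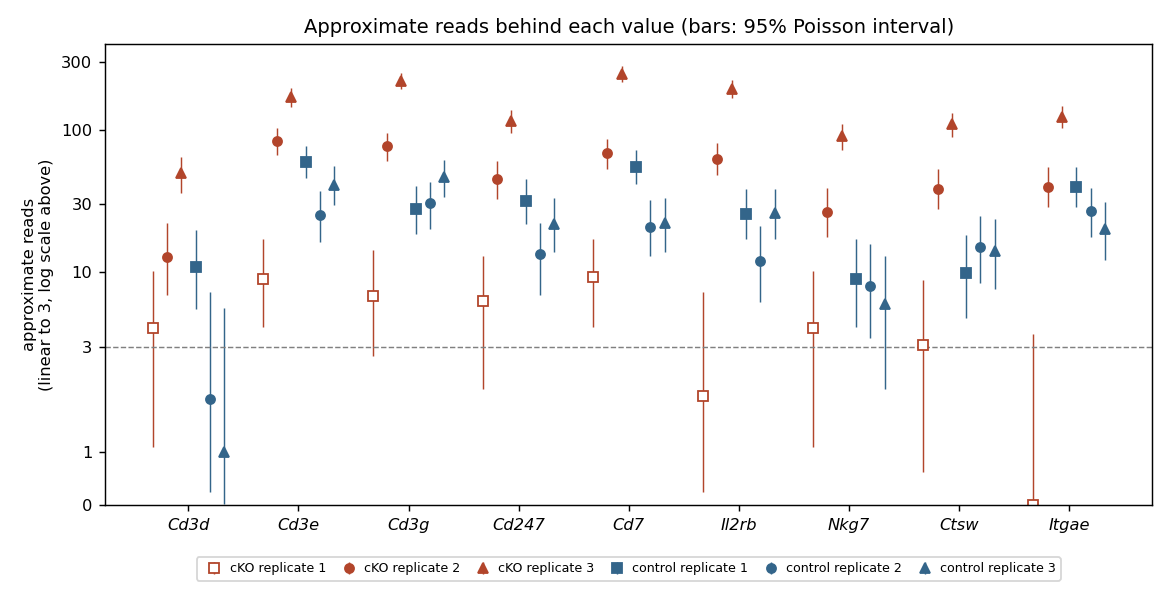
Approximate number of reads behind each value, with 95% Poisson intervals for counting error (y axis linear to 3 reads and logarithmic above). Open squares are cKO replicate 1, whose 9 values rest on 0 to 9.21 reads each, while cKO replicate 3 has 49.3 to 247 reads per gene, and the dashed line marks 3 reads.

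The number of reads behind these values differed widely between libraries. Summed over the 9 genes there were about 44.5, 454 and 1316 reads in cKO replicates 1, 2 and 3, against 269, 154 and 198 in control replicates 1, 2 and 3. In cKO replicate 1 the interval of Cd3e was 50.4 to 209 normalized counts and lay above each control value, and that of Cd7 was 51.7 to 215 and did so too. That of Cd3d was 13.5 to 127 and that of Nkg7 13.6 to 128, both above each control value of their genes. The intervals of Cd3g, 33.6 to 172, and Cd247, 28.4 to 168, also lay above each control value. That of Cd3g overlapped the interval of control replicate 3, 20.4 to 37.2, so its position above that library is not resolved in cKO replicate 1. That of Ctsw, 7.77 to 110.1 from about 3 reads, took in control replicate 3 at 8.45, so its position above control is not resolved in cKO replicate 1, as with Il2rb. In cKO replicate 2 the interval of Cd3d was 4.92 to 15.8 normalized counts from about 13 reads. It took in control replicate 1 at 5.50, so the position of Cd3d above control is not resolved in cKO replicate 2.

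The cKO libraries differed among themselves as well. Each of the 9 genes was higher in cKO replicate 3 than in cKO replicate 2, by 2.14 times (Cd3e) to 4.06 times (Cd3d), with a median of 3.27. The median ratio over all genes tested was 1.01, and 4.73% of them had a ratio above 2.14. Control libraries had no such common order. Control replicate 1 was the highest control for 6 genes and control replicate 3 for 3, and the lowest control was replicate 1 for 2 genes, replicate 2 for 4 and replicate 3 for 3. Against the mean of the controls on the log2(value + 1) scale, the median of the 9 genes was 2.34, 1.59 and 3.43 in cKO replicates 1, 2 and 3, and 0.41, -0.47 and 0.21 in control replicates 1, 2 and 3. Within the libraries high in Xist, 8 of 9 genes were higher in both cKO libraries than in the control library, beside 21.1% of all genes tested. Within those high in Ddx3y all 9 were higher in the 1 cKO library than in both control libraries, beside 41.0% of all genes tested. These splits reuse the contrast on which the genes were chosen, so nothing is read from them, and a part of sex was not tested.

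Ordered by level per kilobase of exon in cKO, Cd7 was first at 103 ± 61.2 normalized counts per kilobase, then Nkg7 at 50.2 ± 27.3, Cd3g at 31.2 ± 17.9, Ctsw at 26.2 ± 15.6, Cd3e at 24.4 ± 8.69, Cd3d at 17.7 ± 11.4, Il2rb at 16.9 ± 15.3, Cd247 at 12.3 ± 5.46 and Itgae at 8.88 ± 10.5 (SD, n = 3). No neighbours in this order differed by more than the sum of their SDs. In control Cd7 was first again at 15.0 ± 8.11, followed by Cd3g at 5.80 ± 2.37, and Cd3d was last at 1.30 ± 1.501 (SD, n = 3). The place of Nkg7 was the fourth in control, at 4.39 ± 0.478 normalized counts per kilobase.

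Other genes of T cell biology were read from 6 lists, and 76 of these genes averaged 10 normalized counts or more. None had an adjusted p under 0.05 in limma, where 0% of all genes did, and none did in limma-voom. At an unadjusted p under 0.05 there were 7 higher and 4 lower among the 76, which is 9.21% and 5.26%, beside 1.47% and 3.46% of all genes tested. Of the pathway genes at that threshold, 16 of 19 were higher after quantile normalization, 21 of 24 in limma-voom and 7 of 10 when scaled to library totals. The split of all genes at that threshold moved with the scaling, 180 of 603 being higher as deposited (603 genes are 4.93%), 261 of 521 when scaled to library totals (2.13% higher), 242 of 621 after quantile normalization (1.98% higher) and 433 of 656 in limma-voom (3.54% higher). Groups did not overlap for 12 of the 76 with cKO higher (15.8%) and for 4 with cKO lower (5.26%), beside 5.16% and 5.7% of all genes tested. Their median log2 fold change was 0.20. Of the 76, 19 had control means under 10 normalized counts and passed the filter on low values through their cKO libraries. Trat1, Fyb, Cxcr6, Itgal and Runx3, all among the 7 higher genes, are of this kind. The filter thus favours genes high in cKO, and nothing is read from the shares of pathway genes higher in cKO. The 7 higher pathway genes became 19 of 75 without cKO replicate 1, where 2.14% of all genes were higher at that threshold. They became 11 of 75 without cKO replicate 2 (4.31% of all genes) and 0 of 67 without cKO replicate 3 (1.19%). They became 8 of 78 without control replicate 1 (2.52%), 1 of 79 without control replicate 2 (0.661%) and 2 of 78 without control replicate 3 (0.745%). Beside the genes chosen by a rule on level and p, Lat, Lcp2, Lck, Cd4, Cd8a, Cd8b1, Ncr1, Gzmk, Klrg1, Klre1, Itgb7, Il2rg and Skint1, and among markers those beyond Cd74 and H2-Aa, are named for their role after their values were seen. Genes for the T cell receptor chains themselves (such as Trac, Trdc and Tcrg-C1, 21 names tried) were not matched and are not analysed here.

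Coreceptor and proximal signalling genes were mostly higher, 13 of the 15 tested, beside 47.1% of all genes tested. Their median log2 fold change was 1.45, and 4 of them had an unadjusted p under 0.05 in limma. Trat1, an adaptor that stabilises the receptor complex at the surface, stood at 23.7, 17.8 and 35.7 normalized counts in cKO replicates 1, 2 and 3, against 7.06, 2.49 and 5.45 in control replicates 1, 2 and 3. Grap2, the Gads adaptor that links Lat to Lcp2, stood at 37.0, 26.5 and 61.1 in cKO replicates 1, 2 and 3, against 11.0, 13.7 and 16.9 in control replicates 1, 2 and 3. Fyb, an adaptor for integrin activation after receptor engagement, had a log2 fold change of 1.75 (SE 0.71). These 3 genes had groups that did not overlap, as did Lat and Lcp2. In cKO replicate 1, however, Trat1 and Lcp2 (23.8) lay under the worth of 3 reads there, 36.8 normalized counts. Grap2 and Lat (39.6) lay just above it. Their separation from control in that library rests on few reads, and Poisson intervals were not computed for them. Lck, the kinase that first phosphorylates the CD3 tails, overlapped between groups at 12.6, 16.3 and 54.0 normalized counts in cKO replicates 1, 2 and 3, against 13.5, 7.82 and 3.62 in control replicates 1, 2 and 3. Thy1, the surface glycoprotein CD90, was far more abundant, at 4134, 2618 and 3281 normalized counts in cKO replicates 1, 2 and 3, against 3078, 1679 and 1465 in control replicates 1, 2 and 3. Rasgrp1, a Ras activator downstream of the receptor, was also abundant, and its log2 fold change was -0.02 (SE 0.23).

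Markers of conventional T cells were near the limit of detection. Cd4 was at 0.764 normalized counts or less in every library, which is 1 read, and Cd8b1 at 0 in each. Cd8a was at 24.0 normalized counts, about 2 reads, in cKO replicate 1 and at 3.08 or less in the other libraries. Of the cytotoxic list, 7 of 25 genes in the table passed the filter, 6 higher and 1 lower, beside 47.1% of all genes tested that were higher. The median log2 fold change of the 7 was 0.90, with 4 listed at 0 in cKO replicate 1 and 0 reaching an unadjusted p under 0.05 in limma. Klrk1, the activating receptor NKG2D, stood at 91.8, 5.05 and 16.0 normalized counts in cKO replicates 1, 2 and 3, against 5.11, 1.01 and 3.68 in control replicates 1, 2 and 3, so the lowest cKO library fell within the control range. Fcer1g, a signalling adaptor that can stand in for the zeta chain, was listed at 0 in cKO replicate 1 and stood at 24.2 and 63.7 in cKO replicates 2 and 3, against 3.01, 7.39 and 9.08 in control replicates 1, 2 and 3. Ncr1, an NK cell receptor, was at 0 in all 6 libraries, as were Gzmk, Klrg1 and Klre1.

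Of 13 residence, migration and activation genes tested, 8 were higher and 5 lower (median log2 fold change 0.25), beside 47.1% of all genes tested that were higher. At an unadjusted p under 0.05 in limma, 2 were higher and 1 lower. Itgal, the LFA-1 integrin subunit of leukocytes, stood at 37.5, 20.0 and 40.3 normalized counts in cKO replicates 1, 2 and 3, against 11.0, 5.87 and 6.63 in control replicates 1, 2 and 3, with no overlap and a log2 fold change of 1.91 (SE 0.67). The Itgal value in cKO replicate 1 was just above the worth of 3 reads there, 36.8 normalized counts, so its separation from control in that library rests on few reads. Cxcr6, a chemokine receptor of tissue-resident lymphocytes, had a log2 fold change of 2.97 (SE 1.15). Cd44, a hyaluronan receptor that keratinocytes also express, stood at 2569, 5337 and 3968 in cKO replicates 1, 2 and 3, against 5024, 7559 and 15700.2 in control replicates 1, 2 and 3. Its log2 fold change was -1.15 (SE 0.44). Itgb7, the partner chain of Itgae, stood at 13.0, 30.3 and 72.2 normalized counts in cKO replicates 1, 2 and 3, against 26.6, 12.0 and 11.8 in control replicates 1, 2 and 3, and its groups overlapped.

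Around Il2rb, the IL-2 and IL-15 receptor pathway was even, with 6 of 12 tested genes higher and 6 lower (median log2 fold change 0.04), beside 47.1% of all genes tested that were higher. Il15ra, which presents IL-15 to neighbouring cells, stood at 179, 224 and 258 normalized counts in cKO replicates 1, 2 and 3, against 304, 298 and 323 in control replicates 1, 2 and 3, a log2 fold change of -0.50 (SE 0.21). Il15, the cytokine, stood at 47.1, 24.4 and 49.5 in cKO replicates 1, 2 and 3, against 19.7, 15.0 and 21.3 in control replicates 1, 2 and 3, where again the groups were apart, with a log2 fold change of 1.02 (SE 0.53). In cKO replicate 1, where 3 reads came to 36.8 normalized counts, the Il15 value rests on few reads. The common gamma chain Il2rg was at 207, 285 and 183 in cKO replicates 1, 2 and 3, against 291, 168 and 302 in control replicates 1, 2 and 3, and overlapped.

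Of 15 T lineage transcription factors tested, 8 were higher and 7 lower (median log2 fold change 0.17), beside 47.1% of all genes tested that were higher. Runx3, a factor of cytotoxic and epidermal T cells, stood at 77.6, 16.9 and 57.6 normalized counts in cKO replicates 1, 2 and 3, against 7.12, 9.61 and 5.84 in control replicates 1, 2 and 3, with no overlap and a log2 fold change of 2.37 (SE 0.75). Ets1, an ETS factor of lymphocytes that keratinocytes express too, was lower in each cKO library, at 336, 770.1 and 417 in cKO replicates 1, 2 and 3, against 1014, 1816 and 2491 in control replicates 1, 2 and 3 (log2 fold change -1.80, SE 0.40). Gata3 and Bcl11b, both also keratinocyte factors, exceeded 1000 normalized counts in each library and overlapped between groups.

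Keratinocyte ligands of epidermal T cells were higher in 3 of 14 tested genes, beside 47.1% of all genes tested, and lower in 11. The median log2 fold change of the list was -0.25, with 1 gene at an unadjusted p under 0.05 in limma. That was Cdh1, E-cadherin, the ligand of CD103, at 7170, 12406 and 9050 normalized counts in cKO replicates 1, 2 and 3, against 11856, 16611 and 21117 in control replicates 1, 2 and 3 (log2 fold change -0.79, SE 0.30). Its groups overlapped. Skint1, a keratinocyte gene needed in the thymus for the selection of epidermal gamma-delta T cells, stood at 239, 523 and 355 in cKO replicates 1, 2 and 3, against 319, 465 and 486 in control replicates 1, 2 and 3.

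**Figure D3:**
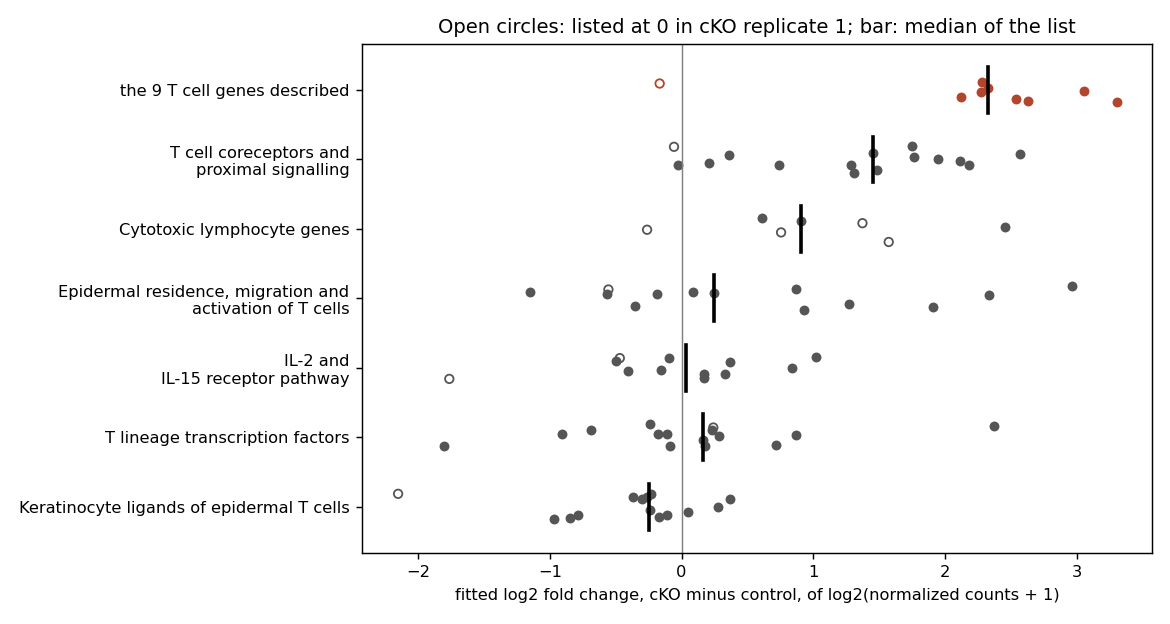
Fitted log2 fold change (cKO minus control) of each tested gene of the 9 T cell genes (top, chosen on this contrast) and of 6 lists of related genes. Points are genes, open where the gene is listed at 0 in cKO replicate 1, and vertical bars are medians, which run from 2.33 for the 9 genes and 1.45 for coreceptors and signalling to -0.25 for keratinocyte ligands.

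Genes whose pattern over the 6 libraries was most like the mean of the 9 T cell genes were sought by Pearson's r of log2(value + 1), among genes averaging 10 normalized counts or more. The 10 nearest had r of 0.958 to 0.978 and were Chid1, Rgs1, Arap3, Adcy7, Ace, Trat1, Fam111a, Ctla2a, Laptm5 and Aatf. The measure ignores the size of a change, and Chid1 ranged only from 181 to 228 normalized counts. The points share libraries and depth, and the genes were picked for high r, so these are a description. Rgs1, a brake on chemokine receptor signalling in lymphocytes, stood at 214, 117 and 591 normalized counts in cKO replicates 1, 2 and 3, against 71.5, 48.0 and 67.4 in control replicates 1, 2 and 3. Laptm5, a lysosomal protein of haematopoietic cells, stood at 115, 77.6 and 292 in cKO replicates 1, 2 and 3, against 28.1, 31.5 and 45.9 in control replicates 1, 2 and 3. Ctla2a, a cysteine protease inhibitor whose reads may be divided with its close relative Ctla2b, stood at 81.9, 55.4 and 168 in cKO replicates 1, 2 and 3, against 24.1, 4.63 and 16.3 in control replicates 1, 2 and 3.

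Markers of other cells were read beside the T cell genes. Of 12 Langerhans and dendritic cell markers, 11 passed the filter, 10 of them higher, beside 47.1% of all genes tested. The list summed to 4085, 2988 and 13797 normalized counts in cKO replicates 1, 2 and 3, against 1819, 2481 and 2320 in control replicates 1, 2 and 3. Each cKO sum lay above each control sum, with cKO replicate 3 highest as for the T cell genes, and the part of these cells in the result was not tested. Most of the sum came from Cd74 and MHC class II genes. Cd207, the langerin that defines Langerhans cells, overlapped between groups, at 170, 172 and 1035 normalized counts in cKO replicates 1, 2 and 3, against 87.3, 222 and 216 in control replicates 1, 2 and 3. H2-Aa, Mfge8, Itgax, Ly75 and Ciita overlapped too. For 5 of the 11 tested the groups did not overlap, with cKO higher, beside 5.16% of all genes tested. At an unadjusted p under 0.05 in limma, 6 of the 11 were higher, beside 1.47% of all genes tested. Cd74, the MHC class II invariant chain, had a log2 fold change of 1.31 (SE 0.52). Macrophage and monocyte markers summed to 32.5 to 194 in cKO and 43.9 to 69.9 in control, and 3 of 11 passed the filter. Melanocyte markers summed to 109 to 238 in cKO and 177 to 202 in control. Fibroblast markers summed to 43.4 or less and endothelial markers to 24.8 or less in every library. B cell markers summed to 0 to 7.91 in cKO and 1.82 to 5.88 in control, with 3 of 7 at 0 in every library. Mast cell markers, 5 of 6 of them at 0 in every library, summed to 0 to 17.7 in cKO and 4.44 to 10.9 in control. Neutrophil markers, 4 of 7 at 0 in every library, summed to 0 to 4.99 in cKO and 6.04 to 15.2 in control. Erythroid markers summed to 36.9 to 105 in cKO and 34.5 to 87.2 in control. Basal keratinocyte markers summed to 504790.1 to 706940 in cKO and 542359 to 582187 in control, and suprabasal markers to 78236 to 96807 in cKO and 43385 to 100635 in control.

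**Figure D4:**
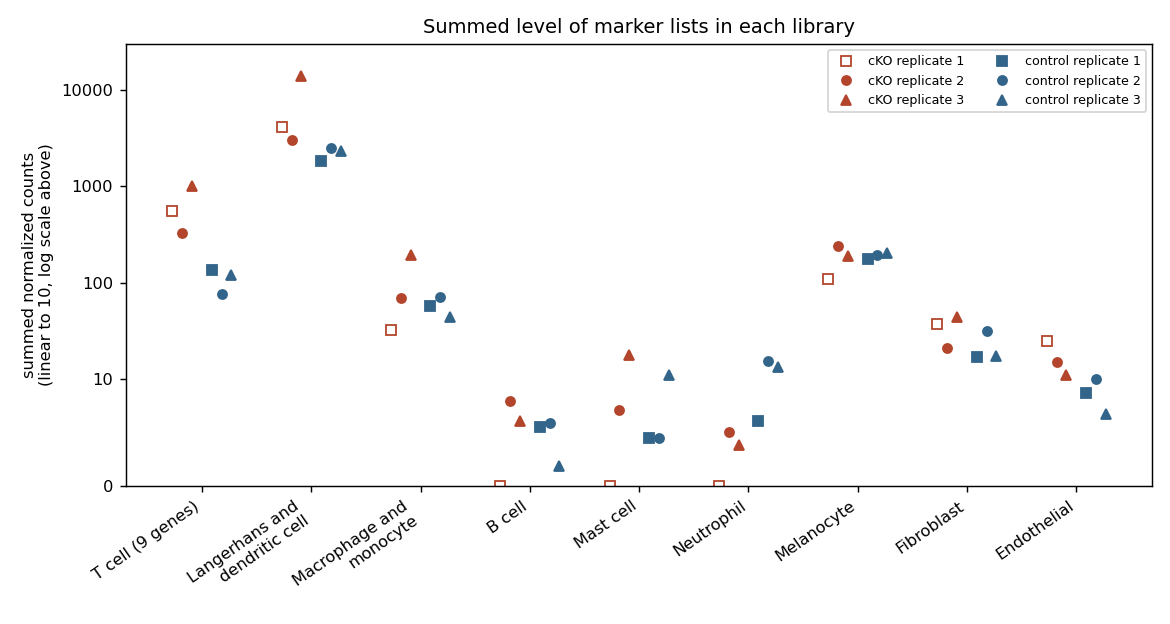
Summed normalized counts of the 9 T cell genes and of marker lists for 8 other cell types in each library (y axis linear to 10 and logarithmic above). Red symbols on the left of each pair are cKO and blue symbols on the right are control libraries, with open squares for cKO replicate 1. The T cell and Langerhans sums are higher in each cKO library than in each control library, and B cell, mast cell and neutrophil sums are at most 17.7.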

How the data were processed

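RNA-seq libraries of sorted basal epidermal cells were made with a directional poly(A) kit (NEBNext Ultra Directional), per the labels' protocols. The deposited values are normalized counts per gene (a signal unit), and per the submitters' processing notes STAR, DESeq2 and the build GRCm38 were used. The versions, annotation, strand setting and filters were not given in the sources used here. Low values lay near whole multiples of 1 step (within 0.05 reads for 85.6% to 90.1% of them in 5 libraries and 47.8% in cKO replicate 1), but values of 20 to 100 reads did not (9.28% to 13.7%), and whole reads were not recoverable. Reads are therefore approximate, and Poisson intervals (95%) and floors (3 reads) cover counting error only. Instead of a count test, limma 3.58.1 (R 4.3.3, statmod 1.5.0) was fitted to log2(value + 1) of 12239 genes with a mean of at least 10 and Benjamini-Hochberg adjustment. The log2 fold changes of low genes therefore depend on the pseudocount. From a pseudocount of 0.5 to 5, that of Cd3d fell from 3.63 to 2.18. That of Itgae, listed at 0 in cKO replicate 1, moved from -0.46 to 0.36. The fit was tested on simulated data. Symbols changed to dates (26 entries) stayed in the table. Gene models came from GENCODE M21 and promoters from RefSeq. The genes and lists were chosen with earlier results of these data known. Named are the 9 genes, Piezo1, Ptprc, level references, the 3 highest and up to 3 of smallest p of each pathway list, the 2 highest of each marker list and the 10 genes most alike, with exceptions stated; not every gene the rule allows is printed. P-values measure the spread between libraries, which may be technical. Alternatives were other pseudocounts, filters and scalings, limma-voom, a replicate block and each library left out. A gene of the lists is not reported here.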

Additional observations from a re-analysis of the deposited data

How the results depend on the processing

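The median log2 fold change of the 9 T cell genes, 2.33, ranged from 2.07 to 2.76 when each library was left out and from 2.06 to 2.88 under the other alternatives. Itgae, -0.17 as deposited, changed sign to 0.36 with a pseudocount of 5, 1.17 after quantile normalization, 1.59 in limma-voom, to 1.74 and 0.04 on leaving out cKO replicate 1 or control replicate 1, and ranged from -1.54 to 1.74 when each library was left out. The cause was not tested beyond leaving out the library in which it is listed at 0. No gene had an adjusted p under 0.05 in limma (603 at an unadjusted p under 0.05) or in limma-voom (656). Leaving out each library gave 0 to 1, the 1 being Amd1 without cKO replicate 2 (log2 fold change -8.77, adjusted p 0.0118). The 11 of 76 pathway genes at an unadjusted p under 0.05 became 5 of 41 with a mean of at least 50. Fewer genes were tested there, 5.28% of all genes reached that threshold, and 1 of the 5 was higher in cKO (1.34% of all genes). The 11 became 19 after quantile normalization and 24 in limma-voom (5.07% and 5.36% of all genes). They became 2 to 21 when each library was left out (the 21 without cKO replicate 1, the 2 without control replicate 2, and 3 each without control replicate 3 or cKO replicate 3). The cause was not tested. Replicate numbers were not taken as pairs in the main fit (correlations of 0.0945, -0.154 and 0.0686 between same-numbered libraries). These correlations use deviations from means of 3 libraries, so they cannot show whether the libraries were paired. With the replicate block 8 pathway genes, 4 of them higher, were at an unadjusted p under 0.05 and 0 genes had an adjusted p under 0.05. In cKO replicate 1 depth leaves each of the 9 genes with 0 to 9.21 reads.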
